A study of Mus musculus with 10 samples.

Results

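The proteasome is the large protease that degrades proteins tagged with ubiquitin, and the genes described here are those that encode its subunits, activators and helpers. They were chosen by name, as every gene of the deposited mouse tables whose symbol starts with Psm, a letter from a to g and a number. The rule found 48 genes. Of these, 47 were in both deposited tables, among 9779 genes shared by the tables, and Psme2b was in the benzamil table only. By role they were 7 alpha and 7 beta subunits of the core, the immunoproteasome subunits Psmb8 and Psmb10, 6 ATPases and 11 other subunits of the regulatory particle, 7 assembly factors, 5 activators and 1 inhibitor. The remaining 2, Psmc3ip and Psme3ip1, encode proteins named for binding a subunit and matched the rule by name only. Psmb9, the remaining immunoproteasome subunit, was not analysed here.

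There were 10 RNA libraries in 3 groups, all labelled as ear skin, from C57BL/6 mice (6 to 8 weeks of age). Imiquimod, which activates Toll-like receptors and is used on mouse skin to bring on psoriasis-like inflammation, was applied topically for 6 days in both treated groups. It was given with the solvent DMSO in the DMSO group (n = 4) and with benzamil, which blocks the epithelial sodium channel, in the benzamil group (n = 4). The untreated group (n = 2) received neither, so imiquimod and its solvent cannot be told apart in its comparison. The series' design text names back skin for the untreated control where the labels name ear, and a difference of body site cannot be told apart from treatment either. No label says that libraries of a group came from separate animals, so p-values measure the spread between libraries, which may be technical.

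A proteasome consists of a barrel-shaped core, the 20S particle, capped by regulators. Each of its alpha and beta rings is built from a full set of different subunits, and the beta subunits Psmb5, Psmb6 and Psmb7 carry the proteolytic sites. The 19S regulatory particle, made of Psmc ATPases and Psmd subunits, recognises ubiquitin chains, unfolds the substrate and opens the gate formed by the alpha ring. Interferon induces replacements of the catalytic subunits, among them Psmb8 and Psmb10, which form the immunoproteasome and favour peptides for class I presentation. Psme1 and Psme2 form the interferon-inducible PA28 cap, Psme3 forms a nuclear cap and Psme4 another nuclear activator. Subunit genes can be raised together by Nfe2l1 when proteasome capacity falls short.

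Libraries were shallow, at 208153 to 938322 reads except for benzamil library 4 (139204) and the untreated libraries (74713 and 71230). Levels are given as CPM (reads scaled to a common total) after TMM scaling, and 1 read was worth from 1.04 CPM (DMSO library 1) to 14.8 CPM (untreated library 2). The 3' kit gives 1 fragment per transcript, so levels were compared between genes without dividing by length. The neutrophil marker list, mostly S100a8 and S100a9, summed to 11060 to 18330 CPM with DMSO, 226.8 to 4265 CPM with benzamil and 44.5 to 228.8 CPM untreated. Which cells the S100a8 and S100a9 RNA came from was not tested, so this sum is not a measure of neutrophil content. Cxcr2, also on that list, had a mean of only 53.2 CPM with DMSO and 14.4 CPM with benzamil. The keratinocyte list summed to 34030 to 42170, 37900 to 41490 and 18040 to 18490 CPM, the fibroblast list to 569.4 to 1100, 733.8 to 2359 and 8350 to 19100 CPM, and the muscle list to 211.0 to 1306, 762.4 to 1780 and 3144 to 3594 CPM. Leukocyte, sebaceous and erythrocyte lists ranged over 246.8 to 565.3, 1642 to 8978 and 20.01 to 310.7 CPM across the libraries, and the 6 endothelial markers were not analysed here. Ribosomal RNA took 22.1% to 28.8% of reads with DMSO, 31.0% to 45.7% with benzamil, and 34.2% and 38.6% untreated. The neutrophil list had 5 of 9 genes in both tables, with Retnlg at 0 in the benzamil group and Cxcr2 and Retnlg at 0 untreated; all 3 tested were lower with benzamil and higher with DMSO than untreated. Of tested markers, 1 of 10 keratinocyte, 8 of 13 muscle, 2 of 7 fibroblast, 0 of 5 leukocyte, 3 of 6 sebaceous and 0 of 1 erythrocyte genes were higher with benzamil than with DMSO, and none of these was lower. For DMSO over untreated, 6 keratinocyte genes were higher and 1 lower, and 9 muscle, 6 fibroblast, 2 leukocyte and 3 sebaceous genes were lower. Among all genes tested, 9.91% were higher and 12.1% lower with benzamil, and 9.93% higher and 8.45% lower for DMSO over untreated. The part of these shifts in the proteasome results below was not tested. In whole skin, fewer cells of a type, less RNA per cell and marker RNA from another cell type cannot be told apart.

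In the DMSO group the highest member was Psma7, an alpha subunit, at 639 ± 60.8 CPM (SD, n = 4). Next came Psmb1, a structural beta subunit, at 332 ± 11.9 CPM, and the ATPases Psmc3 and Psmc1 at 296 ± 29.2 and 294 ± 20.5 CPM, whose ranges overlapped each other. The lowest core gene was the catalytic subunit Psmb5 at 29.0 ± 4.15 CPM. Psma7 also had the highest mean with benzamil (526 ± 83.9 CPM) and untreated (423 ± 10.9 CPM), although Psmb1 and Psmc1 exceeded it in untreated library 2.

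**Figure D1:**
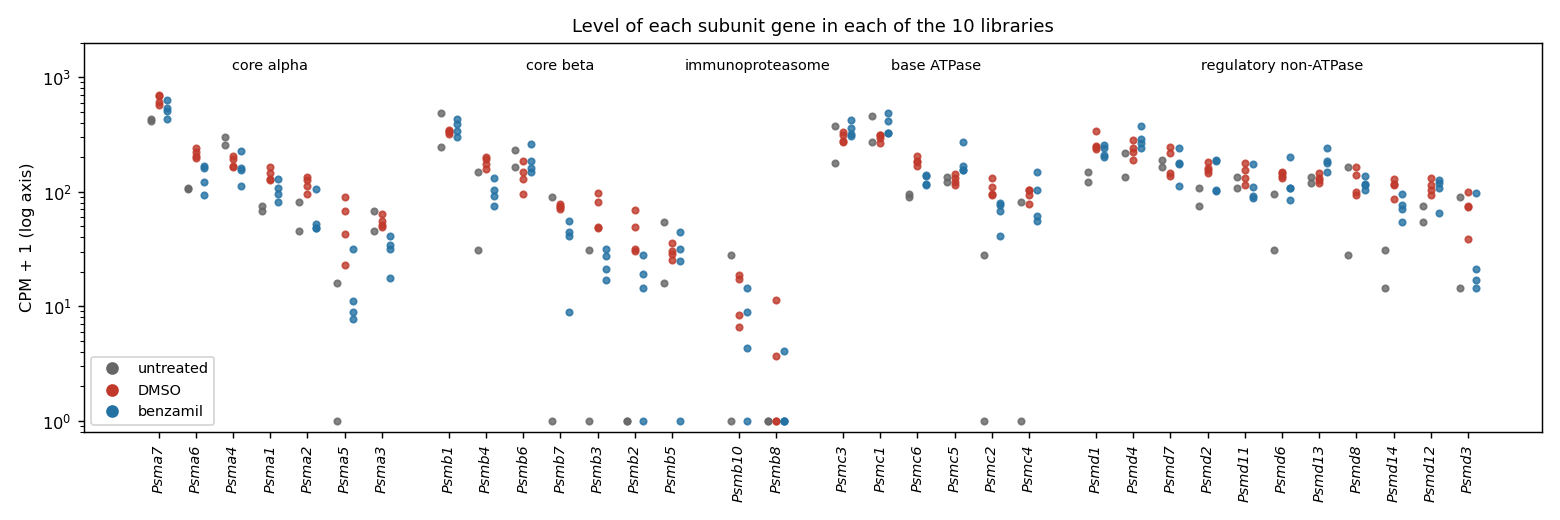
Level of each core, immunoproteasome and regulatory subunit gene on a log axis of CPM plus 1, with 1 point per library, coloured by group. Psma7 has the highest mean in each group, Psmb8 and Psmb10 have the lowest means in the DMSO and benzamil groups, and points at 1 are libraries with 0 reads of that gene.

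Benzamil was first set against DMSO, both with imiquimod, to ask what differs with benzamil in imiquimod-treated skin. Whether the channel was blocked was not tested. Summed core RNA was lower in every benzamil library than in every DMSO library, and summed regulatory RNA overlapped. The 14 core genes summed to 2352, 2261, 2285 and 2165 CPM in DMSO libraries 1 to 4 and to 1753, 1756, 1714 and 1906 CPM in benzamil libraries 1 to 4. Every benzamil library lay below every DMSO library, and both untreated libraries, at 1682 and 1809 CPM, lay in or next to the benzamil range. The 17 genes of the regulatory particle summed to 2655 to 3044 CPM with DMSO, 2544 to 3208 CPM with benzamil, against 2046 and 2017 CPM untreated. Here the treated groups overlapped and both untreated libraries lay below them.

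The quotient of these sums does not depend on how libraries are scaled. Core over regulatory RNA was 0.773, 0.852, 0.857 and 0.794 in DMSO libraries 1 to 4 and 0.649, 0.690, 0.624 and 0.594 in benzamil libraries 1 to 4. It was 0.822 and 0.897 in the untreated libraries. The quotient was thus lower in every benzamil library than in the other 6, also when benzamil libraries 3 and 4 were set aside. These sums weigh genes by their reads, and as sums over chosen genes they are described without a test.

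**Figure D2:**
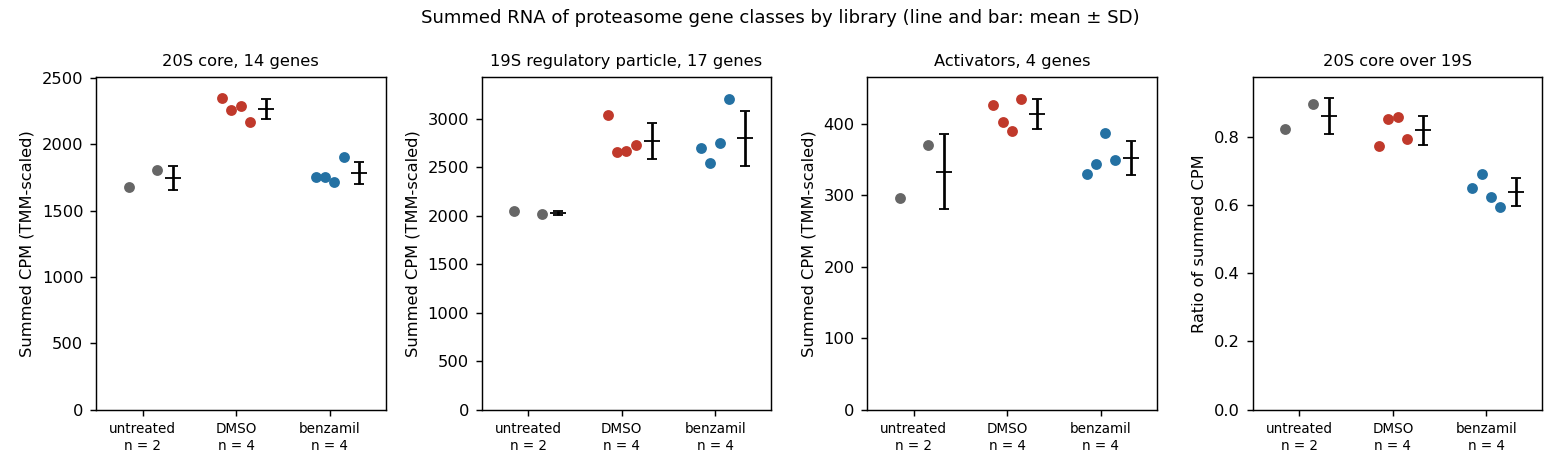
Summed TMM-scaled CPM of the core, regulatory and activator genes and the quotient of core over regulatory RNA, with 1 point per library and the mean ± SD of each group. Core sums are 1714 to 1906 CPM with benzamil against 2165 to 2352 CPM with DMSO, whereas the regulatory sums of these groups overlap.

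Gene by gene, 37 of the 47 shared members passed the filter on low reads and were tested with edgeR's quasi-likelihood test, adjusted over 5245 genes. With benzamil 9 of the 37 were lower and 0 higher, against 12.1% lower and 9.91% higher among all genes tested. At an unadjusted p under 0.05 there were 16 of 37 members in both directions together, against 35.3% of all genes tested, and the DESeq2 and limma fits also called 0 members higher. With each table fitted alone, however, Psmd13 was called higher. The count leans on the filter, which asked for about 34.9 CPM in 2 libraries. Psma5, Psmb2, Psmb3 and Psme3 reached that level only in DMSO libraries, so they could pass only by being high there. Among the 28 members that reached it in at least 2 libraries of each group, 3 were lower (Psma2, Psma6 and Psmb4), against 10.6% of all genes of that kind, which is near the background. Without the filter 8 of 47 were lower, against 7.81% of all 9779 genes in that fit.

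The count also depended on single libraries, with 2 members lower without DMSO library 1, 4 without benzamil library 1, 3 without benzamil library 3, 2 without benzamil libraries 3 and 4, and 0 of 20 after thinning all libraries to the shallowest. It was 6 without DMSO library 2 or 3, or benzamil library 4. Scaling by total reads moved the median of all genes to -0.26 on the log2 scale and gave 16 lower members, against 19.2% of all genes. By class, 7 of 14 core genes and 2 of 4 activators were lower, and 0 of 17 regulatory genes were. That 0 did not hold under every setting: Psmc6 was called lower in DESeq2, Psmc2 and Psmc6 with median-ratio size factors, with each table alone and without either untreated library, Psmc2 with the replicate number as a term, Psmc2, Psmc6 and Psmd14 with total reads, and Psmd3 without benzamil library 1. The median log2 fold change was -0.75 for the core genes tested, -0.11 for the regulatory ones and -0.01 for all genes tested. Psma5, Psmb2 and Psmb3 are among the 7 core genes and Psme3 among the 2 activators. Psme2, the other activator, reached the filter's level in no benzamil library. These counts and medians thus lean on the filter too and are given as a description. The difference between classes was not tested.

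**Figure D3:**
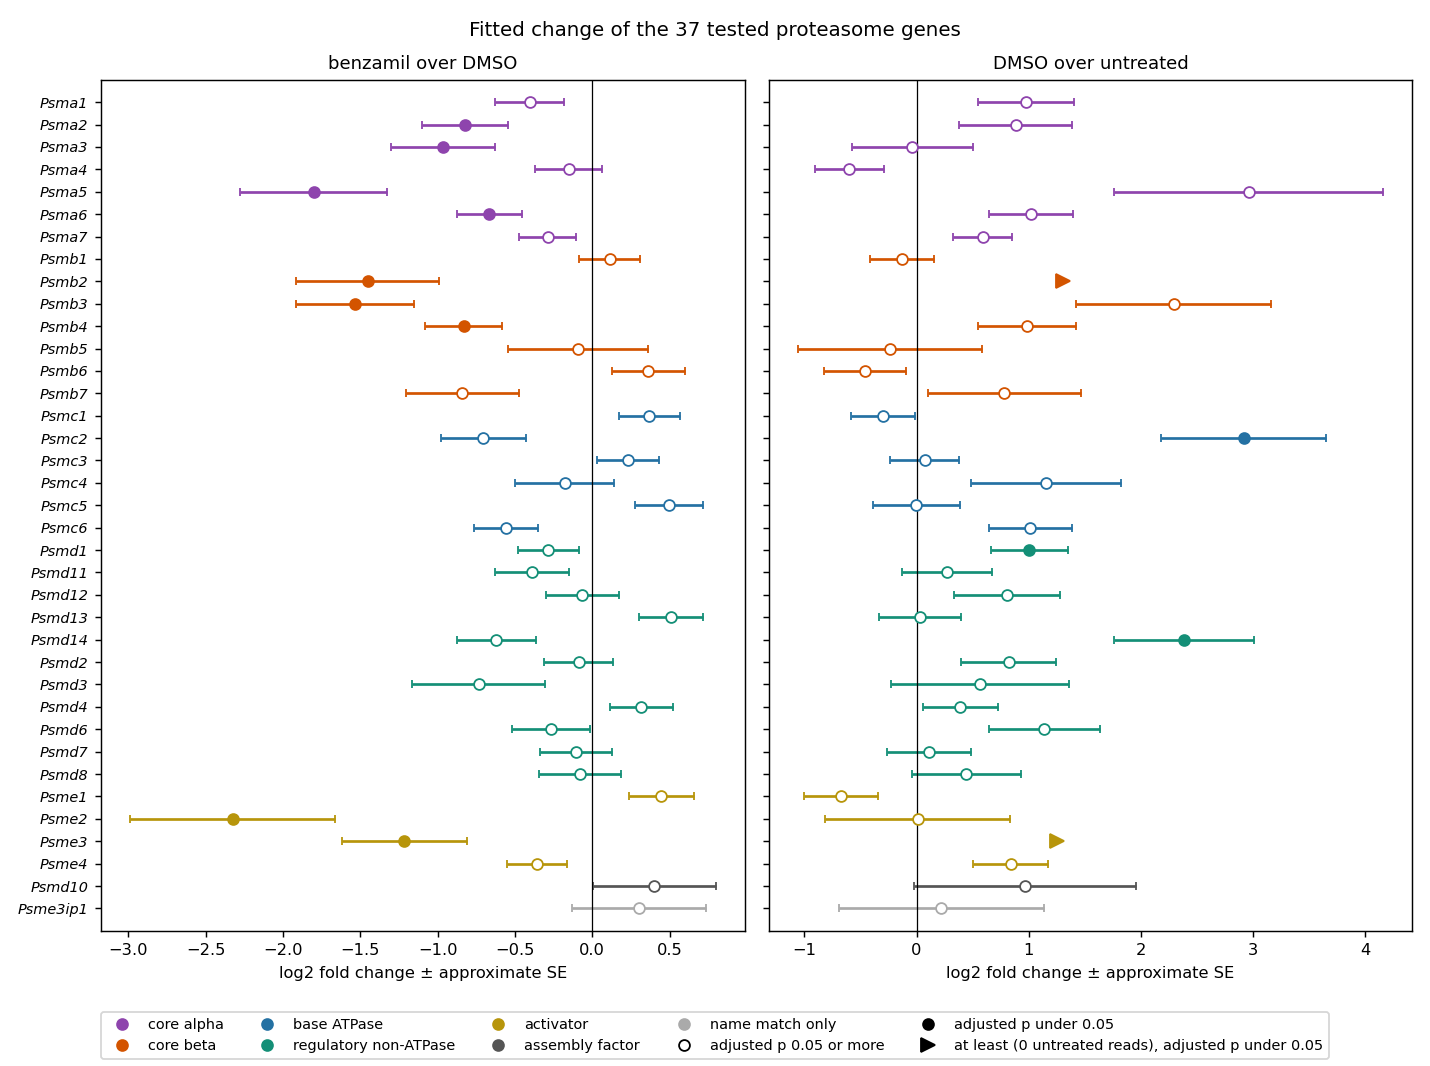
Log2 fold change with its approximate standard error for each of the 37 tested members, for benzamil over DMSO on the left and DMSO over untreated on the right. Filled points passed an adjusted p of 0.05, triangles mark lower bounds for genes with 0 untreated reads, and on the left all 9 filled points are core or activator genes below 0.

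Of the 7 alpha subunits all had negative estimates, and 4 fell. Psma5 (chromosome 3, 108256926 to 108279974, mm10) had 66.5, 89.1, 22.1 and 41.6 CPM in DMSO libraries 1 to 4, 30.3, 10.0, 6.67 and 7.94 CPM in benzamil libraries 1 to 4, and 0 and 14.8 CPM untreated. The treated groups overlapped by a single pair, benzamil library 1 above DMSO library 3. Its log2 fold change was -1.80 ± 0.47 (edgeR adjusted p = 0.00805), and it stayed below the threshold without any 1 library, but not without benzamil libraries 3 and 4 (adjusted p = 0.0866). It too passed the filter only through DMSO libraries. With the benzamil table fitted alone Psma5 did not pass the filter and was not tested.

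Psma6 (chromosome 12, 55384222 to 55418454) had 220.3, 197.2, 239.1 and 205.4 CPM with DMSO, 121.3, 160.3, 93.4 and 166.8 CPM with benzamil, against 107.7 and 103.8 CPM untreated. The treated groups did not overlap, and the untreated libraries lay with the benzamil libraries. Its change was -0.67 ± 0.21 (edgeR adjusted p = 0.0254), lost without DMSO library 1 or 3, or benzamil library 1 or 3 (adjusted p up to 0.0975).

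Psma2 (chromosome 13, 14613240 to 14674236) had 134.0, 110.7, 125.1 and 94.4 CPM with DMSO, 51.6, 103.5, 46.7 and 47.6 CPM with benzamil, against 80.8 and 44.5 CPM untreated. Benzamil library 2 stood with the DMSO libraries and the other 3 below them. The change was -0.82 ± 0.28 (edgeR adjusted p = 0.0337), and it was lost without any of DMSO libraries 1 to 3 or benzamil libraries 1, 3 and 4 (adjusted p up to 0.138). Psma3 (chromosome 12, 70974621 to 70996347) had 62.3, 54.0, 47.8 and 49.97 CPM with DMSO, 30.3, 16.7, 33.4 and 39.7 CPM with benzamil, against 67.3 and 44.5 CPM untreated. Its treated groups did not overlap, but the untreated libraries lay around the DMSO level. The change was -0.97 ± 0.34 (edgeR adjusted p = 0.0405), lost without any of DMSO libraries 1 to 3 or benzamil libraries 1 to 3 (adjusted p up to 0.179). It was also lost in DESeq2 (adjusted p = 0.0658), limma (0.0916) and without the filter (0.0535). Psma7, the highest member, had 567.3, 610.4, 688.0 and 691.2 CPM with DMSO and 533.8, 434.1, 500.3 and 635.3 CPM with benzamil, which overlapped (-0.29 ± 0.18, edgeR adjusted p = 0.27). For Psma2, Psma3, Psma5 and Psma6 the annotation has an overlapping gene on the opposite strand, and for Psma2 also 1 on its own strand. Whether counting used strand is not given in the sources used here.

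Of the 7 constitutive beta subunits 3 fell in the edgeR fit of all 10 libraries, all of them structural. The catalytic Psmb7, described below, was called lower under some other settings. Psmb3 (chromosome 11, 97703399 to 97713500) had 95.6, 48.6, 80.9 and 47.2 CPM with DMSO, 30.3, 20.03, 26.7 and 15.9 CPM with benzamil, against 0 and 29.7 CPM untreated. The highest benzamil library lay below the lowest DMSO library. The change was -1.54 ± 0.38 (edgeR adjusted p = 0.0054), and the call held without each library in turn and without benzamil libraries 3 and 4. As Psmb3 passed the filter only through DMSO libraries, where it was high, neither is independent of the filter.

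Psmb4 (chromosome 3, 94884093 to 94886961) had 198.4, 191.8, 172.9 and 155.5 CPM with DMSO, 91.0, 130.2, 73.4 and 103.2 CPM with benzamil, against 148.1 and 29.7 CPM untreated. The treated groups were apart and the untreated libraries stood far from each other. The change was -0.83 ± 0.25 (edgeR adjusted p = 0.0177), lost without DMSO library 1, benzamil library 1 or benzamil library 3 (adjusted p up to 0.0727). Psmb2 (chromosome 4, 126677630 to 126709714) had 68.6, 48.6, 29.4 and 30.5 CPM with DMSO, 18.2, 26.7, 13.3 and 0 CPM with benzamil, against 0 reads in both untreated libraries. Again the treated groups did not overlap. The change was -1.45 ± 0.46 (edgeR adjusted p = 0.0254), lost without benzamil library 1, 3 or 4 (adjusted p up to 0.0698), and without DMSO library 1 or 2 the gene fell under the filter.

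**Figure D4:**
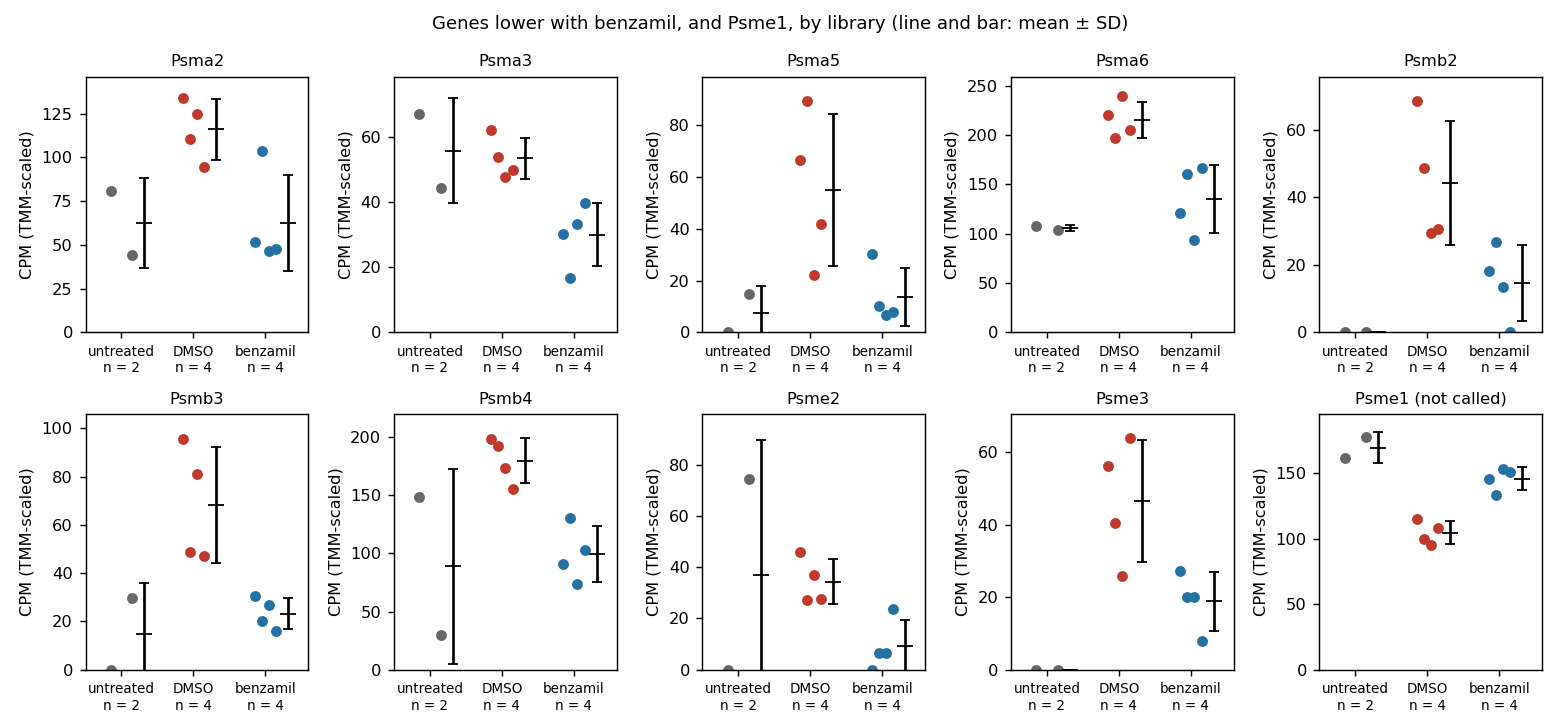
TMM-scaled CPM of the 9 genes called lower with benzamil and of Psme1, which was not called, with 1 point per library and the mean ± SD of each group. Psma3, Psma6, Psmb2, Psmb3, Psmb4 and Psme2 have no benzamil library at or above a DMSO library, and Psme1 shows the opposite order.

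The promoters of Psmb3, Psma6 and Psma5 are shown as examples of core genes that fell, from both rings. They are RefSeq promoter windows of build GRCm38.p6, on the plus strand, from 250 bases before the RefSeq start up to the gene start, or up to the GENCODE start where that lies earlier. Capitals mark matches to the antioxidant response element bound by NRF2-type factors (TGANNNNGC) or the interferon-stimulated response element, searched on both strands.
Psmb3, chr11:97703184-97703398: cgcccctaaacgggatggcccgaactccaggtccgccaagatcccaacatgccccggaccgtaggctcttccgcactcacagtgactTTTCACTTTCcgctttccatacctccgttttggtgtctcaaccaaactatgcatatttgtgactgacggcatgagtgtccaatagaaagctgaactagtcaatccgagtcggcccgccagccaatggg
Psma6, chr12:55383972-55384221: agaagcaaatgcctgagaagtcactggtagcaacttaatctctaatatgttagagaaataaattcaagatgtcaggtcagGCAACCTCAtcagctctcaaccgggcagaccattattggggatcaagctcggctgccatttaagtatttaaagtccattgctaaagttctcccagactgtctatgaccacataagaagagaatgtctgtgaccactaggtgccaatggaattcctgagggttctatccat
Psma5, chr3:108256676-108256925: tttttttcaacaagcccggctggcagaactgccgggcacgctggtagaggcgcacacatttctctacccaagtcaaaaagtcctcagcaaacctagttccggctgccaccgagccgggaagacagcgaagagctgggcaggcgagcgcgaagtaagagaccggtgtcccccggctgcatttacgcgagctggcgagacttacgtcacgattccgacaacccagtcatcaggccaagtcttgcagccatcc
The capitals of Psmb3 match the interferon element on the minus strand, those of Psma6 the antioxidant element on the minus strand in the upstream one of its RefSeq windows, and Psma5 holds no match to any motif searched in the stretch shown. Past the stretches shown, Psma5 had an antioxidant match at position 9 from the RefSeq start and Psmb3 one at position -10. The downstream window of Psma6, not shown, held another at position -92.

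None of the 3 constitutive catalytic subunits passed the test in the edgeR fit of all 10 libraries. Psmb6 had 186.0, 148.6, 128.8 and 94.4 CPM with DMSO, 160.7, 183.6, 146.8 and 262.1 CPM with benzamil, against 228.8 and 163.1 CPM untreated, and its estimate was positive (0.36 ± 0.24, edgeR adjusted p = 0.282). Psmb5 had 24.3 to 34.3 CPM with DMSO and 30.3, 43.4, 0 and 23.8 CPM with benzamil (-0.09 ± 0.45, edgeR adjusted p = 0.911), an estimate that turned positive without DMSO library 1, without benzamil library 3 and without benzamil libraries 3 and 4. Psmb7 had 72.7, 70.2, 73.6 and 77.7 CPM with DMSO against 54.6, 43.4, 40.0 and 7.94 CPM with benzamil. These groups did not overlap, yet the change missed the threshold (-0.84 ± 0.36, edgeR adjusted p = 0.0976) and passed it without either untreated library. Psmb7 was also called lower in limma (adjusted p = 0.0475), with total reads (edgeR adjusted p = 0.0304) and with each table alone. Psmb1 was within the spread (0.11 ± 0.20, edgeR adjusted p = 0.726), and its estimate turned negative under total-read scaling, after thinning and without benzamil libraries 3 and 4.

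Immunoproteasome subunits were close to the limit of detection. Psmb8 (chromosome 17, 34197721 to 34201454) had 10, 1, 0 and 0 reads in DMSO libraries 1 to 4, 1 read in benzamil library 1 and 0 in benzamil libraries 2 to 4 and both untreated libraries. A count of 0 allowed up to 20.01 CPM in benzamil library 3 and 44.5 CPM in untreated library 2, from 3 reads of counting error alone. Psmb10 had 27 reads with DMSO (17.7, 16.2, 7.36 and 5.55 CPM), 4 with benzamil (0, 3.34, 13.3 and 7.94 CPM) and 2 in untreated library 1. The groups overlapped, and neither gene passed the filter.

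The balance of each immune subunit with its constitutive counterpart was compared as a log2 ratio of reads, with 1 read added to each. For Psmb8 to Psmb5 the mean was -2.65 ± 0.83 with DMSO and -2.07 ± 1.58 with benzamil, a difference of 0.58 (exact two-sided permutation p = 0.629). For Psmb10 to Psmb7 it was -2.50 ± 0.65 and -2.07 ± 1.85, a difference of 0.43 (exact two-sided permutation p = 0.743). Both p-values were 0.743 after adjustment over the 2 pairs, and 4 against 4 libraries can give no p below 0.0286. At these depths the added read sets much of the ratio, so no shift was detectable, and the third pair needs Psmb9. The first difference turned to -0.11 without benzamil library 3 and the second to -0.26 without benzamil library 4.

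In the regulatory particle 5 of 17 estimates were positive and 12 negative, from -0.73 (Psmd3, a lid subunit) to 0.51 (Psmd13, also of the lid), and 0 passed. Psmd3 moved to -2.05 without benzamil library 1 (edgeR adjusted p = 0.00718). Among the ATPases Psmc1 and Psmc5 were above every DMSO library in every benzamil library. Psmc1 had 310.7, 291.7, 309.0 and 266.5 CPM with DMSO and 327.6, 327.2, 413.6 and 484.4 CPM with benzamil (0.37 ± 0.20, edgeR adjusted p = 0.184). Psmc5 had 113.4 to 141.6 CPM with DMSO and 154.7, 153.6, 166.8 and 270.0 CPM with benzamil (0.50 ± 0.22, edgeR adjusted p = 0.105). Psmd13 also had no overlap, at 118.8 to 143.5 CPM with DMSO and 146.8 to 238.3 CPM with benzamil (0.51 ± 0.21, edgeR adjusted p = 0.0769). It was called higher with each table fitted alone.

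Their neighbours in the same ATPase ring lay the other way. Psmc2 had 92.0 to 130.9 CPM with DMSO and 40.0 to 79.4 CPM with benzamil (-0.70 ± 0.28, edgeR adjusted p = 0.068). Psmc6 had 166.6 to 205.7 CPM with DMSO and 113.4 to 140.2 CPM with benzamil (-0.56 ± 0.21, edgeR adjusted p = 0.0522). Groups of both were apart, and both passed the threshold without either untreated library. The ATPase Psmc3 was within the spread (0.23 ± 0.20, edgeR adjusted p = 0.43) and turned negative under total-read scaling. Psmd4, a ubiquitin receptor, had 189.1 to 279.6 and 240.4 to 373.3 CPM (0.32 ± 0.20, edgeR adjusted p = 0.274). Over all 37 members the treated groups did not overlap in 14, with 10 lower in benzamil and 4 higher, against 13.4% and 11.1% of all genes tested. The fourth higher one was Psme1. Among the 10 lower ones, Psmb2 and Psmb3 passed the filter only through DMSO libraries, and Psme2 reached its level in no benzamil library. The count of lower members thus leans on the filter too and is given as a description.

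The subunits of the PA28 cap gave opposite values. Psme1 (chromosome 14, 55578123 to 55581529), which encodes PA28 alpha, had 115.3, 99.9, 95.6 and 108.3 CPM with DMSO, 145.6, 133.6, 153.4 and 150.9 CPM with benzamil, against 161.5 and 178.0 CPM untreated. The 3 groups did not overlap, with DMSO lowest, but the estimate missed the threshold (0.45 ± 0.21, edgeR adjusted p = 0.128). Psme2 (chromosome 14, 55587441 to 55591113), which encodes PA28 beta, had 45.7, 27.0, 36.8 and 27.8 CPM with DMSO, 0, 6.68, 6.67 and 23.8 CPM with benzamil, against 0 and 74.2 CPM untreated. Every benzamil library lay below every DMSO library, whereas the untreated libraries spanned the whole range.

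The change of Psme2 was -2.33 ± 0.66 (edgeR adjusted p = 0.0132), from 74 reads with DMSO and 6 with benzamil, and it was lost without DMSO library 1 or benzamil library 1 (adjusted p up to 0.0766). Psme2 reached the filter's level only in DMSO libraries 1 and 3 and untreated library 2, and in no benzamil library. Its test thus leans on the filter too. With the benzamil table fitted alone, where 32 members were tested, Psme2 did not pass the filter and was not tested. Its copy Psme2b had 8 reads with DMSO and 2 with benzamil. Counting could split reads between them, so the value of Psme2 is uncertain to that extent. Psme3 (chromosome 11, 101316213 to 101323537) had 56.1, 40.5, 25.8 and 63.8 CPM with DMSO, 27.3, 20.03, 20.01 and 7.94 CPM with benzamil, against 0 reads untreated. Only benzamil library 1 reached the lowest DMSO library. Its change was -1.22 ± 0.40 (edgeR adjusted p = 0.0325), lost without DMSO library 1 or 4 or without benzamil library 2, 3 or 4 (adjusted p up to 0.125), and also in DESeq2 (0.0577) and limma (0.0508). With the benzamil table fitted alone Psme3 did not pass the filter either. Psme4 had 209.9 to 236.0 CPM with DMSO and 157.7 to 206.8 CPM with benzamil, which did not overlap (-0.36 ± 0.19, edgeR adjusted p = 0.193).

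Most assembly factors were too low to test. Psmd10 (gankyrin, a chaperone of the regulatory base) had 16.7 to 37.8 CPM with DMSO and 23.8 to 42.5 CPM with benzamil (0.40 ± 0.40, edgeR adjusted p = 0.504). The other 6, Psmd5, Psmd9 and Psmg1 to Psmg4, together with Psmd10, summed to 88.8 to 169.2 CPM with DMSO, 66.8 to 119.1 CPM with benzamil, against 26.9 and 59.3 CPM untreated. Psmf1, the inhibitor PI31, had 13.9 to 24.3 CPM with DMSO and 6.67 to 27.3 CPM with benzamil, with groups overlapping and no test.

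The DMSO group was then set against untreated skin, to ask what imiquimod with DMSO changes. At the depth of the libraries as sequenced, members lay mostly above untreated skin. All 47 shared members together summed to 6052, 5545, 5555 and 5469 CPM in DMSO libraries 1 to 4, 4950, 4785, 4983 and 5639 CPM in benzamil libraries 1 to 4, and 4159 and 4271 CPM untreated. Both untreated libraries lay below all treated ones. Of the 37 tested members 5 rose and 0 fell, against 9.93% higher and 8.45% lower among all genes tested. The median log2 fold change of the tested members was 0.78, also with genes of 0 untreated reads set at their bound, and that of all genes was 0.18. Thinning all libraries to the shallowest left 20 members and 1555 genes to test, which is a different set of genes. Of these 20 members 10 had positive and 10 negative estimates, with a median of 0.003 against 0.004 for all genes. Depth and gene set changed together here, so the thinned medians cannot be set directly against those of the full fit. Psma5, Psmb2, Psmb3 and Psme3 passed the filter only through DMSO libraries, so these counts and medians are a description as well.

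The 5 genes were spread over the particle. Psmd1 (chromosome 1, 86064387 to 86139151), the scaffold of the regulatory base, had 337.7, 248.5, 242.8 and 236.0 CPM with DMSO against 121.1 and 148.3 CPM untreated, and 200.3 to 253.5 CPM with benzamil. All treated libraries lay above both untreated ones. Its change was 1.00 ± 0.34 (edgeR adjusted p = 0.042), lost without DMSO library 1 or either untreated library (adjusted p up to 0.178), in DESeq2 (0.0794) and with each table alone (0.0641). The annotation has overlapping genes for Psmd1 (3 on its strand, 1 opposite) and for Psmd14 (1 on each), whose reads could not be told from theirs. The other 4 rose from near 0 reads in untreated skin, where fold changes are best read as bounds or ratios of reads.

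Psmc2 (chromosome 5, 21785283 to 21803787), an ATPase, had 130.9, 94.5, 92.0 and 108.3 CPM with DMSO and 26.9 and 0 CPM untreated. That is 225 reads against 2, or 8.12 times as much (95% interval from counting error 2.22 to 67.4), with an edgeR adjusted p of 0.00753 (and 0.0773 without untreated library 2). Psmd14 (chromosome 2, 61711694 to 61800376), the deubiquitinase of the lid, had 126.8, 116.1, 84.6 and 113.8 CPM with DMSO and 13.5 and 29.7 CPM untreated. Its 229 reads against 3 were 5.51 times as much (interval 1.86 to 26.9), with an edgeR adjusted p of 0.00924 (and 0.11 without untreated library 1). With benzamil Psmc2 lay between these groups at 40.0 to 79.4 CPM, and Psmd14, at 53.4 to 95.3 CPM, overlapped the DMSO libraries. Psmb2 and Psme3 had 103 and 99 reads with DMSO and 0 untreated, so they were at least 2.48-fold and at least 2.38-fold higher, taking 3 reads over the untreated group as the floor (edgeR adjusted p = 0.0336 and 0.02). Both lost the call without either untreated library (adjusted p up to 0.144 and 0.113).

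**Figure D5:**
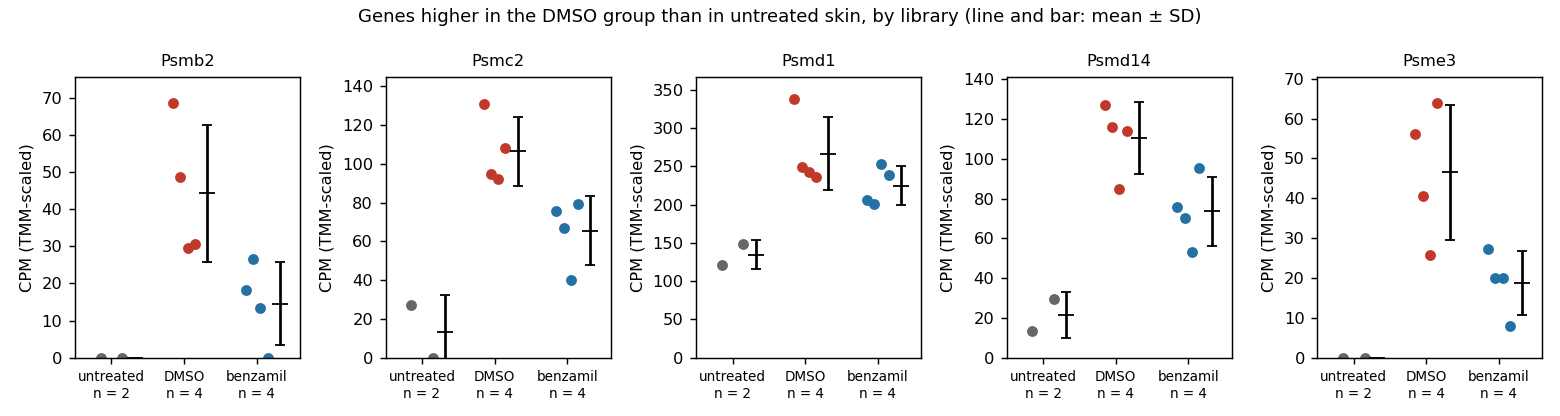
TMM-scaled CPM of the 5 members called higher in the DMSO group than in untreated skin, with 1 point per library and the mean ± SD of each group. No untreated library lies above a treated one, both are at 0 reads for Psmb2 and Psme3, and in Psmc2 the benzamil libraries lie between the other groups.

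Among members named above but not called here, Psma5 had 118 reads against 1 (a ratio of 8.51, interval 1.498 to 339, edgeR adjusted p = 0.0832) and Psmb3 149 against 2 (a ratio of 5.37, interval 1.46 to 44.8, edgeR adjusted p = 0.0647). Both had passed the filter only through the DMSO libraries. Psma5 met the threshold without DMSO library 3, and Psmb3 without DMSO library 4 or untreated library 2. Psma7 was 639 ± 60.8 CPM with DMSO and 423 ± 10.9 CPM untreated (0.59 ± 0.26, edgeR adjusted p = 0.113), and Psme4 228 ± 12.3 and 127 ± 11.3 CPM (0.84 ± 0.33, edgeR adjusted p = 0.0782). For Psme1 every DMSO library lay below both untreated ones (-0.67 ± 0.33, edgeR adjusted p = 0.155), as also for the alpha subunit Psma4 (-0.60 ± 0.31, edgeR adjusted p = 0.171). The share of all genes with this order was not computed. In limma on the deposited log2 values 18 of 47 members were called higher, against 24.1% of all 9820 genes in that fit, with the replicate number as a term none were, and after thinning 0 of 20 were higher and 1, Psma4, was lower.

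Between benzamil and untreated skin edgeR called 0 of 37 members, against 4.00% of all genes tested in either direction. In edgeR 5 members had an unadjusted p under 0.05, against 18.9% of all genes tested, and DESeq2 on the same reads also called 0. Estimates were positive for 27 members and negative for 10. Both comparisons with DMSO use the same 4 DMSO libraries, so their values stand side by side here and are not related to each other by any statistic.

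The authors' deposited DESeq2 tables gave fewer calls. For benzamil over DMSO, 5 of 43 members with an adjusted p were lower, Psma5, Psma6, Psmb3, Psmb4 and Psme2, against 6.43% of all genes in that table. The authors' deposited table put Psmb3 at -1.18 ± 0.35 (adjusted p = 0.0134) and Psma5 at -1.25 ± 0.38 (adjusted p = 0.0211). For DMSO over untreated, their table called 1 of 41 members higher, Psmc2, against 4.65% of all genes.

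Of 31 gene symbols listed as working with the proteasome, mostly ubiquitin, shuttle and chaperone factors, 25 were tested. The 31 include older and newer symbols of the same genes (Shfm1 for Sem1, Ufd1l for Ufd1). With benzamil 1 was higher and 2 were lower, and the median was -0.19. Neither count lay above the share of all genes tested, 9.91% higher and 12.1% lower. Nfe2l1, the factor that raises subunit genes, had 141.3, 135.1, 114.0 and 141.6 CPM with DMSO and 206.2, 203.7, 213.5 and 206.5 CPM with benzamil. The groups were far apart, and the change was 0.63 ± 0.20 (edgeR adjusted p = 0.0238). Nfe2l2, the oxidative stress factor NRF2, had 187.6 to 256.6 CPM with DMSO and 71.5 to 115.3 CPM with benzamil (-1.06 ± 0.22, edgeR adjusted p = 0.00113). Rps27a, which encodes ubiquitin fused to a ribosomal protein, had 105.5 to 341.8 and 15.9 to 142.5 CPM, which overlapped (-1.19 ± 0.36, edgeR adjusted p = 0.0198), and such genes can share reads with near-identical copies. The genes of both transcription factors thus had opposite directions.

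For DMSO over untreated 2 of these 25 genes were higher and 1 lower, neither above the share of all genes tested (9.93% and 8.45%). Rad23b, a shuttle that carries ubiquitinated proteins to the proteasome, had 222.1 to 280.9 CPM with DMSO and 67.3 and 44.5 CPM untreated (2.17 ± 0.41, edgeR adjusted p = 0.000639). It was higher with benzamil than untreated as well, at 185.0 to 240.4 CPM (1.90 ± 0.42, edgeR adjusted p = 0.0103), as the only gene of the list. Among all genes tested 4.00% were called in that comparison, in either direction. Ube3c, a ubiquitin ligase, had 29.4 to 44.4 CPM with DMSO and 0 reads untreated (edgeR adjusted p = 0.0228). Ecpas, a proteasome adaptor, had 70.2 to 183.9 CPM with DMSO and 201.9 and 341.1 CPM untreated (-1.14 ± 0.39, edgeR adjusted p = 0.0435).

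Of 28 class I antigen-processing and interferon genes 14 were in both tables and 11 were tested. With benzamil 1 was lower, the class I heavy chain H2-K1, at 132.4 to 224.4 CPM with DMSO and 39.7 to 136.5 CPM with benzamil (-0.89 ± 0.28, edgeR adjusted p = 0.0225). With DMSO over untreated 1 was higher, Pdia3, a chaperone of class I loading, at 338.5 to 421.8 CPM against 94.2 and 207.6 CPM (1.40 ± 0.33, edgeR adjusted p = 0.00494). Neither count lay above the share of all genes tested, 12.1% lower with benzamil and 9.93% higher for DMSO over untreated. Medians were -0.04 and 0.40, against -0.01 and 0.18 over all genes.

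Promoter windows of 250 bases before to 50 after the start were found for 41 of 48 members and for 27025 genes in all. The antioxidant element was in 23 of the 41 (56.1%), against 45.0% of all genes. The interferon element, searched as GAAA, any 2 bases and GAAA, was in 5 (12.2%) against 3.99%, in Psmb3, Psmd4, Psmd9, Psme1 and Psmg4. The gamma-activated site (TTCNNNGAA) was in 3 (7.32%) against 9.55%, one of them Psmb8. The ETS core (CCGGAAGT) was in 9 (22.0%) against 4.31%, among them Psma6, Psmc1, Psmc2, Psme3 and Psme4. Of the 8 genes lower with benzamil that had a window, 5 held the antioxidant element, 1 the interferon element, 0 the gamma-activated site and 2 the ETS core. A match is a run of letters and says nothing on whether a factor bound there.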

How the data were processed

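Per the labels' protocols, 3' mRNA libraries with molecular identifiers were made from 500 ng of skin RNA. STAR, featureCounts and DESeq2 with mm10 are named in the submitters' processing notes, without versions. It is not stated whether identifiers were collapsed, so counting intervals and floors cover counting error only.

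The authors deposited variance-stabilised log2 values per gene in 2 tables, normalized separately, and DESeq2 tables with a mean signal, a log2 fold change with its error and an adjusted p-value. The sign of their comparison with untreated skin, which has DMSO as its base, was turned here. A deposited count table has human identifiers only and entered no comparison. The design had assumed an edgeR test on reads; since the deposited unit is log2, the transform was inverted, and every value came out whole within 0.001 reads, with all 39116 DMSO values in both tables giving equal reads.

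All 10 libraries entered 1 edgeR quasi-likelihood fit (edgeR 4.0.16, R 4.3.3) of 9779 shared genes with TMM scaling. The filter (10 reads at the median depth in 2 libraries, total 15) kept 5245 genes. The call was an adjusted p (Benjamini-Hochberg) under 0.05. Standard errors are approximate, the log2 fold change over the root of the test's F. CPM uses TMM-scaled library sizes. Ratios with 1 to 3 reads have exact 95% intervals. Coordinates are from GENCODE M21. Fits and inversion were tested on simulated data.

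Genes named in full were those called in any comparison, the catalytic subunits, activators, the inhibitor, and the member with most reads in each class. Other members given with values (Psma4, Psmc3, Psmc5, Psmc6, Psmd3, Psmd4 and Psmd13) were added after their values were seen. The members and the lists were chosen with earlier results of these data known. Deviations of log2 CPM from the group means correlated at 0.000688 to 0.0686 between same-numbered DMSO and benzamil libraries, so numbers were not taken as pairs. Alternatives were other scalings, no filter, DESeq2 1.42.0, limma 3.58.1, each table alone, no ribosomal RNA, a replicate block and leaving out each library; leaving out benzamil libraries 3 and 4 together and thinning to 71144 reads were added after seeing the data.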

Additional observations from a re-analysis of the deposited data

Results flagged for a closer look

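Among 66 groups of 4 libraries looked at, 7 had 1 library far from the other 3 by a gap test, and chance gives about 1 in 20. In the benzamil group these were Psma2 in library 2 (103.5 CPM against 46.7 to 51.6 in the others), Psma5 in library 1 (30.3 against 6.67 to 10.0), Psmb8 in library 1 (3.03 CPM, 1 read, against 0) and Psmc5 in library 4 (270.0 against 153.6 to 166.8). In the DMSO group library 1, the deepest, stood apart for Psmd1 (337.7 CPM against 236.0 to 248.5), for Psme4 (209.9 against 231.8 to 236.0) and for the sum of all 47 shared members (6052 against 5469 to 5555).

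The count table with human identifiers was used in no comparison. It holds 61533 rows, all with human identifiers and 0 with mouse ones, and 98 of them are PSM genes. These took 0.89% of its reads in the lowest DMSO library and 1.08% in the highest, 0.763% to 0.98% with benzamil, and 0.558% and 0.571% untreated. All treated libraries lay above both untreated ones in this table, whose samples are those of the mouse tables.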

How the results depend on the processing

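For benzamil over DMSO, scaling by total reads gave 248 genes higher, 1009 lower and 16 members lower, and turned Psmb1 (-0.168) and Psmc3 (-0.0392). Each table fitted alone called 1 member higher, Psmd13. Without benzamil libraries 3 and 4 there were 284 genes higher, 300 lower and 2 members lower, and Psmb1 (-0.0136) and Psmb5 (0.336) turned. Thinned reads gave 138 genes higher, 136 lower, 0 members lower and Psmb1 at -0.102, with fewer genes tested (1555).

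For DMSO over untreated, members higher were 9 without a filter, 18 in limma and 0 after thinning, where 1 was lower. Genes higher were 329 in DESeq2, 2369 in limma and 210 after thinning, which gave 215 lower. For benzamil over untreated, genes higher were 63 with total reads, 200 without a filter, 81 in DESeq2 (125 lower) and 83 after thinning (1 member lower), and 43 were lower without benzamil libraries 3 and 4. Beyond what is named here, the cause of these shifts was not tested.

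Leaving out 1 library at a time gave, for benzamil over DMSO, 291 to 632 genes higher, 356 to 799 lower and 2 to 12 members lower. For DMSO over untreated it gave 225 to 532 higher, 208 to 448 lower and 3 to 6 members higher, and for benzamil over untreated 63 to 141 higher and 36 to 92 lower. The log2 fold change of Psmb5 ranged from -0.169 to 0.175 and was 0.0413 without DMSO library 1. The pair differences ranged from -0.257 to 1.16 (Psmb10 to Psmb7) and from -0.111 to 1.16 (Psmb8 to Psmb5).

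With the replicate number as a block, 45 genes were higher and 53 lower for DMSO over untreated with 0 members, and 77 were higher for benzamil over untreated. For benzamil over DMSO 7 of 32 members were lower. Same-numbered libraries share only a number, and in deviations from the group means not every library correlated best with its own number.

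Of the other values 203 counts or pair differences and 590 fold changes of named genes kept their direction and side of the threshold (counts within 1.5 times), 60 fold changes lost and 30 gained a call. Untreated libraries at about 14 CPM a read limit every comparison with them, and changes of genes under the filter could not be detected.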
